A study of Rattus norvegicus with 65 samples.

Results

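Esr1, Pgr, Prlr and Areg, the genes of estrogen receptor alpha, the progesterone receptor, the prolactin receptor and the growth factor amphiregulin, were followed through serial passage of rat mammary tumors. They were taken by gene symbol, with every probe set annotated to them and dim ones included. This gave 4 of the 10411 genes named on the arrays, read by 6 of 15923 probe sets: 1 each for Esr1 (1387704_at), Pgr (1387563_at) and Areg (1369871_at) and 3 for Prlr (1370384_a_at, 1370789_a_at and 1369493_at). The transplants were passages of carcinogen-induced rat mammary tumors through syngeneic hosts, that is, animals of the same inbred strain, in 5 successive generations, transplants 1 to 5. They were set against the primary tumors from which the lines began. The 11 lines (series 10, 13, 17, 19, 25L, 25R, 32, 33, 34, 36 and 42) gave 54 transplant arrays and 11 primary arrays. Each generation of a line was 1 tumor on 1 array, so the lines are the replicates, and series 10 has no array at transplant 5. The labels give neither the carcinogen, the rat strain, the age of the hosts nor any hormone treatment. Hormone dependence itself, that is, growth with and without ovarian or pituitary hormones, was therefore not measured, and only the RNA of genes that carry or answer the hormone signals was.

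Estrogen receptor alpha and the progesterone receptor are transcription factors that are switched on by their steroid ligands, and Pgr is a classical gene induced through the estrogen receptor. The prolactin receptor is a cell surface cytokine receptor that signals through the kinase Jak2 and the transcription factor Stat5 and drives milk gene expression in the mammary epithelium. Amphiregulin is a ligand of the EGF receptor; in the mouse mammary gland it is induced by estrogen in hormone-sensing cells and passes the growth signal on to neighbouring cells. Carcinogen-induced rat mammary tumors are known as tumors that commonly depend on ovarian hormones and prolactin.

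Levels are log2 of the array intensity after all arrays were scaled to the same median, with every intensity below 39.8 raised to that floor, a log2 level of 5.31. Values at the floor have no order among themselves. Array medians before scaling lay between 96.1 and 176.5, the lowest on the transplant 5 array of series 32. The tissue was not epithelial throughout. Summed intensities of 14 luminal epithelial markers ranged from 695.8 to 21160 with a median of 13580 over the 10 transplant 5 tumors, against 961.6 to 32170 with a median of 18690 over the 11 primary tumors. Epcam, an epithelial adhesion molecule, was at 5.58 in series 32 and at the floor in series 34 and 42 at transplant 5, against 11.91, 12.01 and 6.00 in their primary tumors. In bulk tissue, fewer cells of a type and less RNA per cell cannot be told apart.

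Receptor RNA and Areg RNA were lower in the transplants than in the primary tumors for each of the 4 genes. In a linear model over all arrays with the series as a block (limma, two-sided, Benjamini-Hochberg over 15632 probe sets, threshold 0.05), 5 of the 6 member probe sets fell in the mean of transplants 1 to 5 relative to the primary tumors. The same 5 fell at transplant 5 taken alone. Over all probe sets, 7.22% passed in the first comparison (3.12% higher and 4.1% lower) and 10.3% in the second (5.19% higher and 5.08% lower), and the median difference of all probe sets was 0.0067 and 0.0195. The exception was the Prlr probe set 1369493_at. This fit counts the passages of a line as separate values. With 1 value per line, in the exact sign-flip test given below, no member probe set passed after adjustment. For all transplants the adjusted p of the 5 probe sets was 0.109 to 0.189 in that sign-flip test.

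Esr1 was the dimmest member, with 7.1% of probe sets dimmer by mean level. In the 54 transplants its level had a lowest value and a median of 5.31 and a highest of 6.08, against a lowest of 5.31, a median of 5.94 and a highest of 6.80 in the 11 primary tumors. It was at the floor on 44 of 54 transplant arrays and on 4 of 11 primary arrays, and the groups overlapped between 5.31 and 6.08. The fitted difference was -0.54 ± 0.08 (SE) with an adjusted p of 2.0e-05 in limma, with 7 series lower, 1 higher and 3 equal. In the lines not lower, series 10, 34, 36 and 42, the primary tumor was at the floor, so no fall could be seen. The higher line was series 34, by 0.01. The fit gave a 1.45-fold lower level, with most transplants at the floor. The size moved with the floor: it was -0.82 with the floor at the 5th percentile of all intensities and -0.14 with the floor at the 20th, with limma's adjusted p at 2.2e-05 and 0.00773. The test among all generations lost Esr1 with the floor at the 20th percentile (adjusted p = 0.149).

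Esr1 was at the floor on 7 of 11 arrays already at transplant 1, and at or near it in most tumors from transplant 2 on. In series 25R it stood at 6.80 in the primary tumor and at the floor in all 5 transplants, and in series 17 at 5.79 in the primary tumor and at the floor thereafter. The transplant 1 tumors of series 13 and 32 still had 6.01 and 6.08, and no tumor from transplant 2 onwards exceeded 5.50. With 44 of 54 transplant values at the floor, a slope over passage says nothing about a further fall. The difference at transplant 1 alone was -0.43 ± 0.10 with an adjusted p of 0.165. From transplant 2 on, each generation taken alone was lower than the primary tumors (adjusted p from 0.000326 to 0.00243 in limma).

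Pgr had a lowest level of 5.31, a median of 5.97 and a highest of 8.66 in the 54 transplants, against 5.31, 7.39 and 7.98 in the 11 primary tumors. It was at the floor in 17 of 54 transplants and 1 of 11 primary tumors. The ranges overlapped fully, and the highest single value was the transplant 1 tumor of series 32. Compared within lines, the transplants were lower in 10 of 11 series and equal in series 42, where every array was at the floor. The fitted difference was -0.84 ± 0.24 (limma adjusted p = 0.0206), a 1.79-fold lower level, and -1.06 ± 0.32 at transplant 5 (adjusted p = 0.0242), with 8 of 10 series lower and series 13 higher at 7.07 in transplant 5 against 6.93 in its primary tumor. Both sizes include floored values, and the first was -0.64 with the floor at the 20th percentile. The Pgr call was among the less stable: without series 32, 34 and 42, which had Epcam near the floor at transplant 5, the differences were -0.83 (adjusted p = 0.0581) and -0.91 (0.149), and without series 17 they were -0.70 (0.0965) and -0.89 (0.0918).

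Prlr was read by 2 probe sets that moved together and 1 that did not. Probe sets with names ending in _a_at are of the type that can detect alternative transcripts of a gene. The brightest, 1370384_a_at, had a lowest level of 5.31, a median of 9.73 and a highest of 11.96 in the transplants, against 5.31, 11.13 and 11.68 in the primary tumors. It was at 10.77 or above in 9 of 11 primary tumors, the others being series 36 at 8.74 and series 42 at the floor, and the ranges of transplants and primary tumors overlapped. The fitted difference was -1.57 ± 0.34 (limma adjusted p = 0.00255), a 2.97-fold lower level, with 10 of 11 series lower and series 42 equal at the floor. At transplant 5 it was -2.28 ± 0.45 (adjusted p = 0.00097), a 4.86-fold lower level.

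For Prlr probe set 1370789_a_at, the transplants had a lowest level of 6.07, a median of 8.77 and a highest of 11.22, against 6.23, 10.07 and 10.84 in the primary tumors. Its difference was -1.17 ± 0.27 (limma adjusted p = 0.00496; 9 of 11 series lower), and -1.66 ± 0.36 at transplant 5 (adjusted p = 0.0026; 10 of 10 lower). None of its 65 values was at the floor. However, in series 42, where the brightest Prlr probe set was at the floor on all arrays, this probe set read 6.07 to 6.50. The transplant 5 values of series 17, 32, 34 and 36 lay in that range, at 6.32, 6.32, 6.14 and 6.45. The 10 lower series at transplant 5 include series 42, at 6.17 against 6.23. Whether this range is the lower limit of the probe set was not tested. Without series 32, 34 and 42 both _a_at probe sets stayed past the threshold, at -1.31 (adjusted p = 0.00562) and -1.0 (0.0235) for all transplants and -1.76 (0.00867) and -1.32 (0.0343) at transplant 5.

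The third Prlr probe set, 1369493_at, was dim and flat. Its median was 6.40 in the transplants, over a range of 5.31 to 6.99, against a median of 6.52 over 6.01 to 6.82 in the primary tumors, and the difference was -0.08 ± 0.11 (limma adjusted p = 0.725). Within lines the change of 1370384_a_at minus that of 1369493_at averaged -1.48 ± 1.23 (SD, n = 11 series) for all transplants, below 0 in 10 of 11 series. For 1370789_a_at the same quantity was -1.08 ± 1.10 (10 of 11 series). These comparisons between probe sets were chosen after the values were seen and are given as a description. The line mean of 1369493_at was highest in series 42, at 6.66, where 1370384_a_at was at the floor on all arrays. Which transcripts each probe set detects was not analysed here, nor whether 1369493_at follows Prlr RNA. Its flat level therefore does not show a Prlr transcript that stayed stable.

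**Figure D1:**
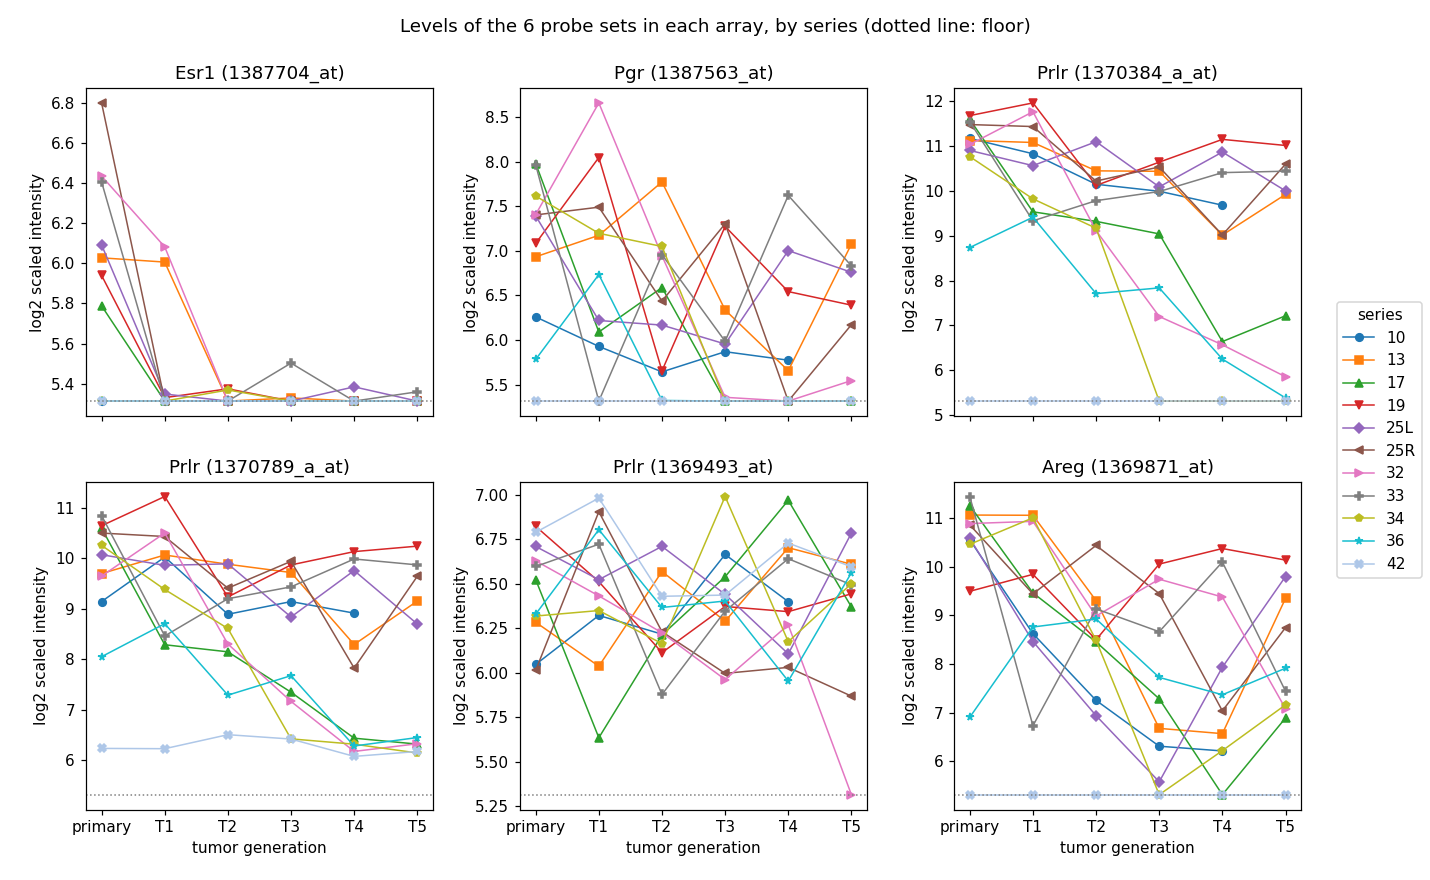
Level of each member probe set (log2 scaled intensity, y axis, scaled separately in each panel) in the primary tumor and transplants 1 to 5 (T1 to T5, x axis), 1 line and marker per series and 1 point per array; the dotted line is the floor of 5.31. Esr1 was at the floor on 7 of 11 arrays at transplant 1 and lay close to it in all lines from transplant 2 on. The 2 Prlr _a_at probe sets parted into lines near 10 and lines that approached their lowest values at transplant 5. Probe set 1369493_at stayed between 5.31 and 6.99.

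Areg had a lowest level of 5.31, a median of 8.46 and a highest of 11.06 in the transplants, against 5.31, 10.59 and 11.45 in the primary tumors. It lay at 9.50 or above in 9 of 11 primary tumors, with series 36 at 6.91 and series 42 at the floor, and the transplants overlapped with this range. The fitted difference was -1.85 ± 0.43 (limma adjusted p = 0.0048), a 3.61-fold lower level, with 8 series lower, series 19 and 36 higher and series 42 equal. At transplant 5 it was -1.98 ± 0.57 (adjusted p = 0.0195), lower in 7 of 10 series. The lines differed in direction: series 19 had 10.14 at transplant 5 against 9.50 in its primary tumor, and series 36 had 7.92 against 6.91, whereas series 17 had 6.89 against 11.26 and series 33 had 7.44 against 11.45. The transplant 5 call was lost without series 17 (-1.73, adjusted p = 0.0692), without series 32 (-1.77, 0.0627), without only the transplant 5 array of series 32 (-1.71, 0.0535) and without series 32, 34 and 42 (-1.78, 0.134).

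**Figure D2:**
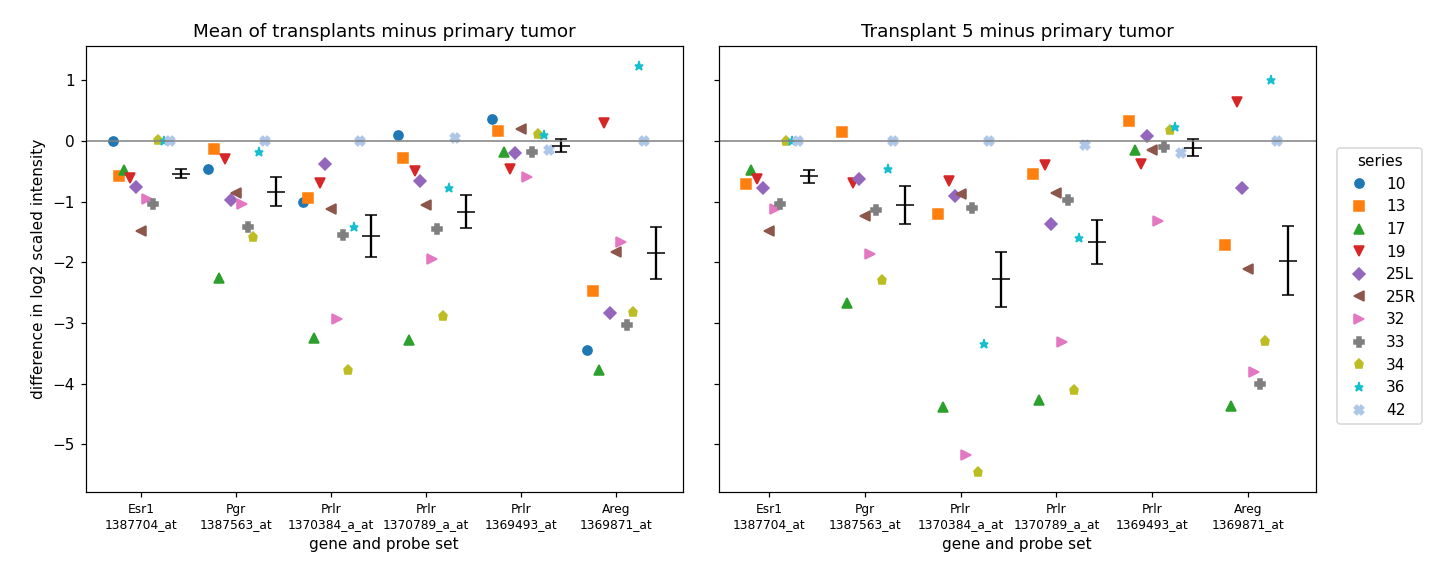
Change within each line, as the mean of its transplants minus its primary tumor (left) and transplant 5 minus primary tumor (right), in log2 scaled intensity (y axis), for each member probe set (x axis). Coloured markers are series, and the black bar beside them is the limma estimate ± SE; series 42 lies at 0 for the 4 probe sets at the floor on all its arrays, and Areg is above 0 in series 19 and 36.

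The 250 bases before the annotated start of Areg and Pgr are shown because RNA of these genes was lower in the same comparisons and both are known targets of hormone signalling. They come from the RefSeq promoter table for build GRCr8. Capitals mark 4 motifs searched on both strands: GGTCA, the core of the estrogen response element; TGACG, the core of the cAMP response element; TATAAA, the TATA box; and GGGCGG, the Sp1 box. The Areg window is chr14:17265642-17265891 on the minus strand and the Pgr window chr8:14354148-14354397 on the plus strand, each printed 5′ to 3′ towards the start of the gene.
Areg: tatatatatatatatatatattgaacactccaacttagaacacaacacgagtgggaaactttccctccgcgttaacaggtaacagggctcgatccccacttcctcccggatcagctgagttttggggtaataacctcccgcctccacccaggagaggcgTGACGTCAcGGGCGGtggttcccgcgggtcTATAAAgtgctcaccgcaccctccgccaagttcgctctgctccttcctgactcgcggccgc
Pgr: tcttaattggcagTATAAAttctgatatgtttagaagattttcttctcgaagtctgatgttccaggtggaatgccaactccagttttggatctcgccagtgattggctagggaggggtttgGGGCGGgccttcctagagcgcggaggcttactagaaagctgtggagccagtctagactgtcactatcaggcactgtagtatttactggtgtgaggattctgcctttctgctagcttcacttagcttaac
The Areg window held TGACG on both strands, at 91 and 88 bases before the start and overlapping each other, followed by GGGCGG at 82 and TATAAA at 61. The Pgr window held GGGCGG at 129 bases and TATAAA at 237 bases before the start. GGTCA was in neither window on either strand. Among 33469 promoters of the same length in the table, 35.4% held GGTCA, 18.2% TGACG, 12.9% TATAAA and 30.5% GGGCGG. The table's windows for Esr1 (1 start) and Prlr (2 starts) lie inside the annotated gene spans and held none of the 4 motifs. A match is a description of the letters, and binding was not measured.

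By generation, the mean level of Prlr 1370384_a_at was 10.49 ± 1.90 in the primary tumors and 10.10 ± 1.85, 9.31 ± 1.60, 8.76 ± 2.04, 8.20 ± 2.23 and 8.11 ± 2.49 at transplants 1 to 5 (SD, n = 11 lines, 10 at transplant 5). Pgr averaged 7.01 ± 0.87 in the primary tumors and 6.74 ± 1.08, 6.35 ± 0.80, 5.94 ± 0.76, 5.86 ± 0.82 and 6.00 ± 0.72 along the passages. Areg averaged 9.90 ± 1.97 in the primary tumors, then 9.06 ± 1.80, 8.34 ± 1.38, 7.47 ± 1.79, 7.44 ± 1.81 and 7.99 ± 1.51. The order of the means was thus downward to transplant 4 for all 3 genes. No step between neighbouring generations passed the threshold for any member. In limma 0% of probe sets passed for transplant 1 against the primary tumor, and 0% for each later step. In that order, 1068, 399, 417, 217 and 640 probe sets had an unadjusted p under 0.05. Failing to pass does not show that a step was absent: Esr1 had -0.43 ± 0.10 at the first step (limma unadjusted p = 9.5e-05).

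Against the primary tumors, Esr1 alone among the members was past the threshold at transplant 2, where 1.43% of all probe sets passed. Its difference there was -0.56 ± 0.10, against -0.66 ± 0.31 for Pgr, -1.17 ± 0.44 and -0.94 ± 0.35 for the Prlr _a_at probe sets and -1.55 ± 0.55 for Areg. Esr1 was at the floor on 9 of 11 transplant 2 arrays (SD 0.02, against 0.53 in the primary tumors), and such floored values make its SE small. The order of the calls is therefore not an order of the falls. At transplant 3 (2.31% of probe sets) and at transplant 4 (4.8%), Esr1, Pgr, Areg and both Prlr _a_at probe sets were lower. The largest of these differences were those of Areg at transplant 4, -2.46 ± 0.55 (limma adjusted p = 0.00519), and at transplant 3, -2.43 ± 0.55 (0.00924). A test of any difference among the 6 generations passed for the same 5 member probe sets, against 3.58% of all probe sets.

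During passage itself, with the primary tumors left out of the contrast, 2 member probe sets had a slope past the threshold, both of Prlr. The slope was -0.49 ± 0.10 log2 units per transplant for 1370384_a_at (limma adjusted p = 0.0148) and -0.37 ± 0.08 for 1370789_a_at (0.0163). Over all probe sets 2.32% had such a slope, 1.18% downward. Pgr had -0.21 ± 0.07 (adjusted p = 0.0864) and Areg -0.32 ± 0.13 (0.145). The Prlr slopes lost their call when series 32, 34 or 36 was left out, with adjusted p from 0.0769 to 0.138, and without series 32, 34 and 42 they were -0.32 (0.435) and -0.25 (0.489).

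The lines did not follow 1 course. Differences among series in slope passed for both Prlr _a_at probe sets (limma F-test, adjusted p = 0.000795 and 0.00776), as they did for 20.1% of all probe sets, and not for Pgr (0.0631), Esr1 (0.125), the third Prlr probe set (0.137) or Areg (0.242). Prlr 1370384_a_at ended near or at the floor in 3 lines: series 32 had 5.86 at transplant 5 against 11.04 in its primary tumor, series 34 was at the floor from transplant 3 on against 10.77, and series 36 had 5.38 against 8.74. Series 17 ended at 7.22 against 11.60. It was also lower, at 9.92 to 11.02, at transplant 5 in series 13, 19, 25L, 25R and 33, against 10.90 to 11.68 in their primary tumors, and at 9.68 at transplant 4 in series 10 against 11.17.

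The epithelial content of these lines differed too. The summed luminal marker intensity at transplant 5 was 1700 in series 32, 1211 in series 34 and 7066 in series 36, against 32170, 27490 and 18490 in their primary tumors. In series 17 it was 11780 against 20660, with Epcam at 10.87 against 11.19, while Prlr, Pgr and Areg of that line differed by -4.38, -2.66 and -4.37 log2 units at transplant 5 from the primary tumor. In series 10, 13, 19, 25L, 25R and 33, where Prlr 1370384_a_at was lower than in the primary tumor but at 9.68 or above, it was 15380 to 21160 at the last transplant against 12280 to 22040 in the primary tumors. Summed fibroblast markers were highest at the last transplant in series 32, at 80480 against 2015. The part of epithelial content in the falls was not tested.

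Series 42 stood apart from its first tumor. All 6 of its arrays were at the floor for Esr1, Pgr, Prlr 1370384_a_at and Areg, and its luminal marker sum was 695.8 at transplant 5 against 961.6 in the primary tumor, with Krt18, Krt19 and Cdh1 at the floor in both. It therefore contributed differences of 0 to these comparisons. Among the members, series differed by limma's F-test for Pgr (adjusted p = 0.00585), Areg (7.7e-05) and both Prlr _a_at probe sets (7.3e-12 and 7.6e-10), where 75% of all probe sets passed, and not for Esr1 (0.218) or 1369493_at (0.30). Of the variance of Prlr 1370384_a_at, 64.4% lay between series and 16.9% between generations, with 18.7% left over. For Esr1 the order was the reverse, with 12.4% between series and 43.3% between generations. However, 48 of its 65 values were at the floor. Neither this split nor the series test can show differences between lines among those values.

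With each line counted as 1 value, the falls were less firm. An exact sign-flip test over series, two-sided, gave an unadjusted p of 0.00195 for Pgr and for Prlr 1370384_a_at, 0.00391 for Prlr 1370789_a_at, 0.00781 for Areg and 0.0156 for Esr1 in transplants against primary tumors. Adjusted over all probe sets these were 0.109 to 0.189, and 0% of probe sets passed in either contrast by this test (2658 and 2768 at an unadjusted p under 0.05). The smallest p it can give is 0.000977 with 11 lines and 0.00195 with 10. Without the replicate block for series, limma called Esr1 but not the other members. The adjusted p was 0.102 for Areg, 0.152 for Pgr and 0.292 and 0.271 for Prlr. Esr1 was at the floor on 44 of 54 transplant arrays, which makes its SE small. Its kept call therefore does not mark its fall as firmer than the others. With series as a random replicate block, each of the 5 probe sets kept its call in both contrasts, with adjusted p from 4.2e-06 to 0.0289.

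Across the 65 arrays the members varied together, Esr1 less closely than the others, apart from 1369493_at. As a description, Pearson's r was 0.83 between Pgr and Prlr 1370789_a_at, 0.76 between Pgr and Areg, 0.71 between Prlr 1370384_a_at and Areg, and 0.97 between the 2 Prlr _a_at probe sets. After series means were removed these were 0.88, 0.71, 0.68 and 0.96. Esr1 had r of 0.51 with Pgr and with Areg, and 0.40 and 0.42 with the Prlr _a_at probe sets. After series means were removed these were 0.46, 0.48, 0.45 and 0.47. Of the Esr1 values, 48 of 65 were at the floor, which limits its r. In contrast, 1369493_at lay between -0.23 and 0.02 with the other probe sets. The arrays share lines and epithelial content, so they are not independent points.

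Over lines, 12 relations were computed, 6 between the genes in the 11 primary tumors and 6 between their changes in the 11 lines, each from the brightest probe set with 100000 permutations and Benjamini-Hochberg adjustment over the 12. In the primary tumors r was 0.93 for Prlr and Areg (adjusted p = 0.0179; Spearman's rho 0.56, adjusted p = 0.181), 0.87 for Pgr and Areg (0.0131; rho 0.73, 0.0836) and 0.81 for Pgr and Prlr (0.0164; rho 0.51, 0.226). Without series 36 and 42, the 2 farthest from the median, r was 0.01, 0.45 and 0.20, so from the brightest probe sets these relations rest on those 2 tumors. With the mean of all 3 Prlr probe sets, Pgr and Prlr had r of 0.89 (permutation adjusted p = 0.00324), and 0.66 without series 36 and 42. Between the changes of the lines, Pgr and Prlr had r of 0.76 (permutation p = 0.00659, adjusted 0.0198; rho 0.77, adjusted 0.0836), and 0.62 without series 17 and 42. With the mean of all Prlr probe sets these changes had r of 0.84 (permutation adjusted p = 0.00714; rho 0.83, adjusted 0.0317). Pgr and Areg had 0.67 (permutation p = 0.0247, adjusted 0.0592; rho 0.64, adjusted 0.12), and Prlr and Areg 0.39 (adjusted 0.33; rho 0.32, adjusted 0.456). The 6 relations with Esr1 had r from -0.05 to 0.61, and none passed (adjusted p from 0.097 to 0.893).

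**Figure D3:**
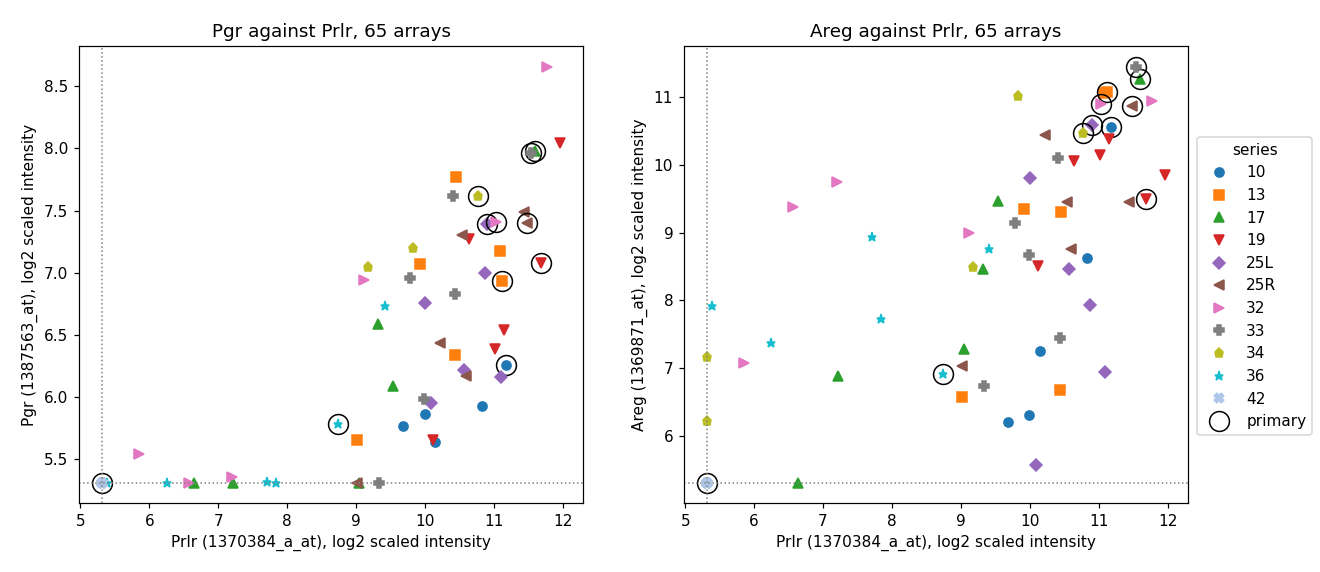
Level of Pgr (left) and Areg (right) against Prlr 1370384_a_at on the 65 arrays, in log2 scaled intensity on both axes, 1 marker shape and colour per series; open circles mark the primary tumors and dotted lines the floor. Of the primary tumors, 9 lie at Prlr levels of 10.77 or above, series 36 at 8.74 and series 42 at the floor, and arrays with Prlr below 8 have Pgr at or near the floor.

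The 5 genes most like each member over the 65 arrays, among 8497 candidate genes, are given as a description. The number 5 was set in advance. For Prlr they were Cmtm8 (r = 0.95), Sidt1 (0.92), Plet1 (0.92), Mia (0.91) and Grb7 (0.91). For Pgr they were Cited4 (0.89), Zbtb43 (0.85), Il18 (0.84), Smim38 (0.84) and Fgfr3 (0.84), and for Areg Adamts1 (0.83), Slco2a1 (0.81), Bmp3 (0.80), Zbtb43 (0.79) and Plac8 (0.77). Zbtb43, a zinc finger gene, was thus among the 5 for both Pgr and Areg. For Esr1, which had few levels above the floor, they were Zscan26 (0.72), Traf3ip2 (0.72), Pak1 (0.71), Nsmf (0.68) and Sos2 (0.68).

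Other receptors of the same class did not pass. Of 15 measured genes for steroid and other nuclear hormone receptors, 0 passed in either contrast. The median difference was 0.04 for all transplants and 0.0036 at transplant 5, beside 0.0067 and 0.0195 over all probe sets. Of all probe sets, 7.22% and 10.3% passed, and a list of 15 genes cannot tell 0 from that share. For the lists that follow, the shares of all probe sets were 4.1% lower and 3.12% higher in transplants. At transplant 5 they were 5.08% lower and 5.19% higher. Esr2, the gene of estrogen receptor beta, averaged 5.52 in transplants and 5.48 in primary tumors and was at the floor on 24 of 65 arrays (difference 0.04 ± 0.08, limma adjusted p = 0.817). Nr3c1, the glucocorticoid receptor gene, averaged 7.77 in transplants and 7.66 in primary tumors (0.11 ± 0.08, adjusted p = 0.468).

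Among 15 partners and coregulators of the estrogen receptor, 2 fell in transplants (median -0.07), beside 4.1% of all probe sets. Crebbp, a histone acetyltransferase coactivator, differed by -0.52 ± 0.12 (limma adjusted p = 0.00508; 9 of 11 series lower) and Xbp1, a transcription factor of the secretory pathway, by -0.46 ± 0.11 (0.00624; 9 of 11 lower). At transplant 5 the same 2 were lower, and Pelp1 and Ddx5, both receptor coactivators, were higher by 0.23 and 0.18 (adjusted p = 0.0468 and 0.0496). Foxa1 and Gata3, the pioneer and luminal transcription factors that act with the receptor, had differences of -0.05 ± 0.09 (0.796) and -0.41 ± 0.20 (0.211).

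Of 20 estrogen-induced genes, 1 fell in transplants, near the share of 4.1% over all probe sets, and the list median was 0.05. The gene was Sgk3, a serum and glucocorticoid regulated kinase family member, at -0.43 ± 0.11 (limma adjusted p = 0.0117, 10 of 11 series lower). At transplant 5 Sgk3 was lower and Igfbp4, an IGF binding protein, was higher by 0.90 ± 0.31 (adjusted p = 0.0479; 9 of 10 series higher). Tff1 and Tff3, the trefoil peptides, had differences of 0.10 ± 0.12 (0.669) and -0.27 ± 0.21 (0.499) in all transplants.

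Of 12 progesterone targets and paracrine signals, 2 fell in transplants (median -0.31), beside 4.1% of all probe sets. They were the clock gene Per1, at -0.67 ± 0.21 (limma adjusted p = 0.0422) although only 5 of 11 series were lower, and Stat5a, at -0.44 ± 0.12 (0.014; 9 of 11 lower). Per1 was at the floor on 25 of 65 arrays and had an adjusted p of 0.123 at transplant 5. Tnfsf11, the RANK ligand gene, had -0.25 ± 0.14 (0.279) and Wnt4 had -0.60 ± 0.24 (0.117; 10 of 11 lower).

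Of 20 genes of prolactin and growth hormone signalling, which include other receptors and ligands, 3 fell in transplants and 0 were higher (median -0.03). Over all probe sets, 4.1% fell and 3.12% were higher. Irs2, an insulin receptor substrate, differed by -0.97 ± 0.19 (limma adjusted p = 0.000804; 10 of 11 series lower), Igf1r by -0.58 ± 0.15 (0.0129; 10 of 11) and Stat5a, the main transcription factor of prolactin signalling, by the value above. At transplant 5, Irs2, Stat5a (-0.67 ± 0.16, adjusted p = 0.00433; 10 of 10 lower) and Cish, a Stat5-induced inhibitor (-0.62 ± 0.18, 0.0192), were lower. Cav1 (1.01 ± 0.27, 0.0123) and Socs3 (0.53 ± 0.18, 0.0427), both known as inhibitors of the pathway, were higher at that passage. Jak2 had -0.26 ± 0.11 (0.143) in all transplants.

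Some milk protein and secretion genes, the classical targets of prolactin, were lower at transplant 5. Of 11 measured, 0 passed for all transplants (median -0.17) and 4 were lower at transplant 5 (median -0.73). Over all probe sets, 7.22% passed for all transplants and 5.08% were lower at transplant 5. At transplant 5 Csn3 averaged 9.78 against 12.43 in primary tumors (-2.49 ± 0.54, limma adjusted p = 0.0026; 10 of 10 series lower), and Csn1s1 averaged 8.75 against 11.03 (-2.09 ± 0.50, 0.00568; 9 of 10 lower). Olah, the fatty acid chain-terminating thioesterase, differed by -2.57 ± 0.64 (0.00707; 10 of 10) and Lalba, alpha-lactalbumin, by -2.39 ± 0.69 (0.0201; 8 of 10). Csn2, beta-casein, was at the floor on 31 of 65 arrays and had -0.73 ± 0.86 (0.639).

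Around amphiregulin, 1 of 17 EGF-family genes was higher and 2 were lower in transplants (median -0.23), beside 3.12% and 4.1% of all probe sets. Hbegf, another ligand of the EGF receptor, was higher by 0.50 ± 0.16 (limma adjusted p = 0.0362; 8 of 11 series). Egfr, the receptor of amphiregulin, differed by -0.51 ± 0.16 (0.0362; 10 of 11), and the ligand gene Ereg by -0.21 ± 0.07 (0.0488; 10 of 11). At transplant 5 Hbegf was at 0.89 ± 0.21 (0.0043), while Egfr (-0.71 ± 0.21, 0.0226), Erbb2 (-0.60 ± 0.20, 0.0443) and Rhbdf1 (-0.44 ± 0.10, 0.00487), whose product takes part in the release of EGF-family ligands, were lower. Ligands of the same receptor thus moved in opposite directions in these tumors, Areg lower and Hbegf higher.

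Of 15 genes of steroid synthesis and inactivation, 1 fell in transplants, beside 4.1% of all probe sets. Hsd17b11, a 17-beta-hydroxysteroid dehydrogenase, fell by 0.84 on the log2 scale (SE 0.14, limma adjusted p = 0.000142, 10 of 11 series lower). At transplant 5 it was lower together with Hsd17b4 (-0.36 ± 0.11, 0.0228).

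Among the cell type markers, mainly luminal ones passed. Of 14 luminal markers, 3 were lower in transplants and 6 at transplant 5 (medians -0.64 and -1.20), led by Cldn3 (-1.75 ± 0.31, limma adjusted p = 0.000227) and Prom1 (-1.22 ± 0.18, 2.0e-05; 11 of 11 series lower). Among the other lists, 0 of 12 basal markers passed in transplants and Mylk was lower at transplant 5 (-1.49 ± 0.42, 0.0179), and 0 of 13 fibroblast markers passed in either (medians 0.47 and 0.71, Col1a1 at 0.47 ± 0.40). Of 11 macrophage markers, Cd14 was lower at transplant 5 (-0.90 ± 0.25, 0.0165). The other 10 had positive differences there that did not pass, and the list median was 0.38. Of 12 skeletal muscle markers, Myh1 was lower in both contrasts (-0.35 ± 0.10, 0.0172, in all transplants). The other 11 did not pass, and the list medians were 0.09 in all transplants and -0.02 at transplant 5. Cd14 and Myh1 therefore do not stand for a fall of their lists. None of 8 endothelial markers (Pecam1 0.13 ± 0.16, 0.692) or 7 adipocyte markers (Fabp4 -0.02 ± 0.34, 0.982) passed. Of 15 cell cycle genes, Ccnb1 (0.65 ± 0.17, 0.011), Mcm6 (0.52 ± 0.16, 0.0308) and Top2a (0.44 ± 0.14, 0.0494) were higher in transplants, and Ccnb1, Mcm6 and Birc5 at transplant 5. The part of cell composition in the changes of the 4 genes was not tested.

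**Figure D4:**
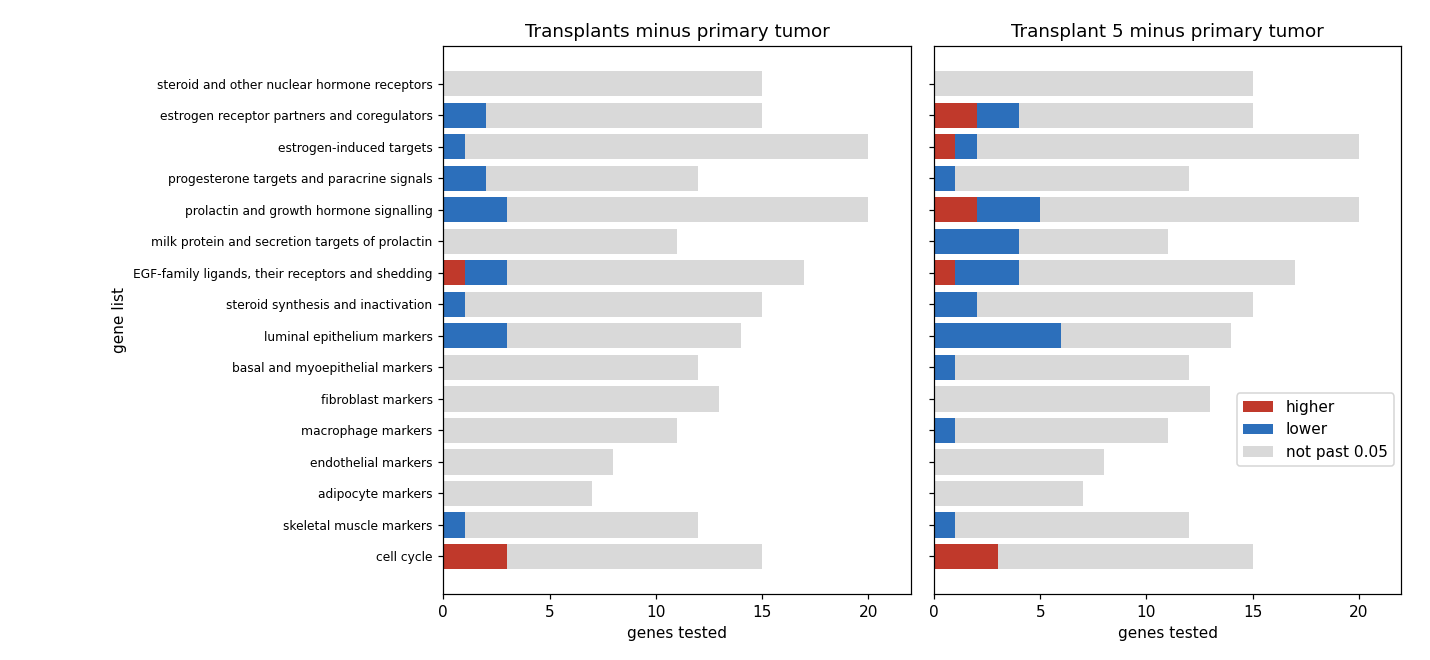
Number of genes tested in each of 16 lists (x axis) that were higher, lower or not past an adjusted p of 0.05 in limma, for transplants minus primary tumor (left) and transplant 5 minus primary tumor (right). At transplant 5, 6 of 14 luminal markers and 4 of 11 milk genes were lower, and 0 of 15 other nuclear hormone receptors passed. Of all probe sets tested, 10.3% passed at transplant 5, and 5.08% of all probe sets tested passed as lower.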

How the data were processed

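RNA from 65 frozen rat mammary tumors was hybridised to Affymetrix arrays from 6 microg total RNA, per the labels' protocols. The deposited values are linear intensities per probe set (1 to 12011); the summarising software and genome build are not given in the sources used here. Each array was scaled to a median of 162, floored at the pooled 10th percentile and log2 transformed. Of 15923 probe sets, 57 controls and 234 at the floor everywhere were left out, and 15632 were tested without a filter on dim values. Probe sets were named from GEO's platform annotation (12783 with 1 symbol, 312 with several, 2771 with none), updated through RefSeq for 12748.

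limma 3.58.1 in R 4.3.3 fitted generation with series as a block, because the design text derives each line from a first tumor; same-series arrays correlated at a mean r of 0.34 (different series -0.03) and the nearest array was of the same series for 47 of 65. Scripts were tested on simulated data. Relations used NumPy 2.4.6. Arrays have no counting depth; the number of lines limits the precision. With series as a block, limma's p-values rest on the spread of tumors within lines, and the passages of a line count as separate values. The spread between lines enters the sign-flip test and the fit with a single value per series. No member probe set passed in either of these after adjustment over all probe sets.

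The members and the 16 lists (216 of 263 genes measured, brightest probe set each) were chosen with earlier results of these data known. Named were all member probe sets, the 5 genes most like each member, and called list genes, up to 4 each way, or 1 to 2 defining genes of a list with none called; a few defining genes of other lists were named after their values were seen. Alternatives covered blocking, scaling, floor, filters, weights, RNA quality and left-out series; leaving out the transplant 5 array of series 32, using no floor and averaging 25L and 25R in the relations were chosen after seeing the data.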

Additional observations from a re-analysis of the deposited data

Results flagged for a closer look

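The slope over transplants 1 to 5 differed among series for Prlr probe sets 1370384_a_at (limma F-test, adjusted p = 0.000795) and 1370789_a_at (adjusted p = 0.00776). For 1370384_a_at the slope lay between -1.44 and -0.73 log2 units per transplant in series 17, 32, 34 and 36 and between -0.38 and -0.09 in series 10, 13, 19, 25L and 25R. It was 0.28 in series 33 and 0 in series 42, at the floor throughout.

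In the transplant 5 tumors, the Esr1 level of series 33 stood apart from the others at 5.36, because the other 9 arrays were tied at the floor of 5.31. The ties set this gap, so it is no sign of an unusual tumor.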

How the results depend on the processing

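No member result turned its direction under the alternatives while called. In the 2 contrasts with primary tumors, the Prlr _a_at probe sets lost calls only without the replicate block and with 1 value per series. Esr1 lost its calls only with 1 value per series. Floored values make the SE of Esr1 small, so these calls do not mark its fall as the firmest. Averaging 25L and 25R, which may come from the same animal, kept all of these calls. With 1 value per series the adjusted p of the 5 probe sets was 0.0575 to 0.0943 for all transplants and 0.0745 to 0.123 at transplant 5. Pgr and Areg also lost calls with array weights (adjusted p = 0.107 and 0.111 for all transplants; 0.111 and 0.137 at transplant 5). Pgr gained a slope call without series 33 (0.0232) or 25L (0.0397). The Prlr slopes were also lost without the replicate block (0.484 each), with it random (0.061 and 0.0606), with 1 value per series (0.518 each) and with array weights (0.0716 and 0.0834). The test among generations lost Pgr under 12 of 25 alternatives, Areg under 7 of 26, Esr1 with the floor at the 20th percentile (0.149), Prlr 1370384_a_at without the replicate block (0.869) and 1370789_a_at without it (0.752) or without series 32, 34 and 42 (0.0774). Averaging 25L and 25R in the relations, added after seeing the data, changed no call; Pgr and Prlr had r of 0.80 between changes (permutation adjusted p = 0.0177).

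Over all probe sets, 1129 passed for transplants minus primary tumor, 1606 for transplant 5, 362 for the slope and 559 among generations. Without the replicate block these were 145, 57, 0 and 18, and with it random the slope had 15 and the generations 344. Using 1 value per series gave 101, 50 and 0 for the first 3, array weights 538, 459 and 7, and the Gapdh 3' to 5' ratio, a measure of RNA quality, 617 for transplants and 370 for generations. Leaving out series 32, 34 and 42 gave 739, 0 and 189 for transplant 5, the slope and generations; leaving out the transplant 5 array of series 32 gave 62 for the slope, and averaging 25L and 25R gave 574. Leaving out each series in turn gave 705 to 1198, 1021 to 1702, 4 to 1005 and 276 to 730. Without rescaling, 26.6% of calls were higher in transplants and 17.4% at transplant 5, against 43.2% and 50.6%. With dim probe sets left out, Esr1 and Pgr were not tested. The causes were not tested. Levels near the floor limit Esr1 and Pgr most.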
